A study of Mus musculus with 7 samples.

Results

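Complement genes were followed in GFP-positive cells sorted from the muscle of normocapnia and hypercapnia mice. The 8 genes were given by name: the C1q chains C1qa, C1qb and C1qc, the central component C3, the alternative pathway factors Cfb and Cfp, and the receptors C3ar1 and C5ar1. Of these, 7 had a row among the 23930 genes of the deposited table and 6 averaged 1 RPM or more, that is, 1 read in 1000000 reads of a library. Cfb had no row under this name and was not analysed here. The question was how these genes differed after 4 weeks of hypercapnia, a raised level of carbon dioxide.

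The complement system is a cascade of blood and tissue proteins that tags particles and damaged cells. C1q recognises such targets and opens the classical pathway, while properdin (Cfp) stabilises the enzyme of the alternative pathway. Both routes cleave C3, and the small fragments released from C3 and C5 signal through C3ar1 and C5ar1 on myeloid cells. Macrophages are a known source of C1q in tissues, and complement is known to take part in the recruitment of macrophages to injured muscle.

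The 7 libraries came from inducible Pax7-GFP mice, 3 in normocapnia (NC1 to NC3) and 4 in hypercapnia (HC1 to HC4), housed in their condition from 12 to 16 weeks of age. All mice of both groups received tamoxifen, which switches on GFP in cells that express Pax7, the transcription factor of satellite cells (the stem cells of skeletal muscle), and the label stays in their progeny. The hypercapnia chamber held 10% CO2 according to the methods of the study. GFP-positive cells were sorted from the hind leg muscles, and the methods place the sort 3 days after cardiotoxin, a toxin that kills myofibers, in both groups, whereas the labels do not mention an injury and the title of the table gives 40 hours. The strain is labelled C57BL/6 for NC1 with the last number rising by 1 from library to library, while the protocol gives 1 background for all mice. Nothing in the labels ties a library to 1 animal or to a pool, so the p-values below measure the spread between these libraries. RNA was read with an Ion AmpliSeq panel, in which each gene is represented by a short amplicon, so levels are compared between libraries and not between genes.

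Library totals ran from 14527445 to 23388710 reads, and 1 read was worth 0.0428 to 0.0688 RPM. The sorted cells carried macrophage transcripts throughout. Summed over the 14 macrophage markers, the level was between 13648.9 and 38221.8 RPM in normocapnia and between 21722.0 and 26684.1 RPM in hypercapnia. The defining satellite cell gene Pax7 lay between 4.337 RPM (NC3) and 268.3 RPM (NC1), and the sum of 10 satellite markers between 153.8 and 3508.2 RPM in normocapnia and between 354.5 and 1199.5 RPM in hypercapnia. NC3 stood apart in its monocyte markers, with 172.2 RPM over 4 genes against 735.6 RPM in NC1, 1063.7 RPM in NC2 and 873.7 to 1124.2 RPM in hypercapnia. The macrophage sum was highest in NC3, where Lyz2 alone made up 29107.7 RPM of it, whereas the mean log2(RPM + 1) of the 14 markers was 8.37 in NC3 and 8.29 in NC1 against 8.70 to 9.26 in the other 5 libraries. NC3 also had the lowest total, the fewest genes at 1 RPM (10619, against 11322 to 13932) and the most genes at 0 (8142, against 5670 to 7122). The satellite sum was highest in NC1, and the part of depth and of other cell types in the complement values was not tested. In such bulk samples, fewer cells of a type and less RNA per cell cannot be told apart.

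None of the 7 measured complement genes was called between the groups. A gene was called at an unadjusted p under 0.05 with a fold change over 1.5 in limma, fitted to log2(RPM + 1) of all genes. Over all 23930 genes this rule called 615 genes or 2.57%, with 343 higher in hypercapnia (1.43%) and 272 lower (1.14%), and after Benjamini-Hochberg adjustment limma called 0 genes against 1114 at an unadjusted p under 0.05. The balance of directions depended on the scaling and the libraries, with 336 higher and 357 lower under quantile scaling, 294 and 508 with edgeR, 519 and 785 with DESeq2, 235 and 381 without NC3, and 1495 and 495 without NC1. By the same rule 2 of 14 macrophage markers, 1 of 4 monocyte markers and 1 of 10 neutrophil markers were called higher, against the 1.43% of all genes. No marker was called lower, and none of the other marker lists had a call. Of the 14 macrophage markers, 8 were higher and 6 lower. With 7 genes and this background, a count of 0 says little about the complement genes. Likewise the groups overlapped in each of the 7, against 965 of 12504 genes (7.72%) averaging 1 RPM or more whose groups did not overlap. Among the 6 complement genes at this level, 5 had a higher mean log2 value in hypercapnia and C3ar1 a lower one, against 62.1% of the 12504 genes that were higher. Without NC3 the signs of C1qb, C1qc, C3 and C3ar1 changed.

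Promoter windows of C1qb, C1qc and C3ar1 are shown first, since C1qb and C1qc had the closest profiles over the libraries among the complement genes and C3ar1 the profile farthest from both. Each window holds the 250 bases before the RefSeq start of the gene on GRCm38.p6, written 5′ to 3′ on the minus strand, on which all 3 genes lie. Capitals mark matches, on either strand, to GAGGAA (a PU.1-type ETS motif, read as TTCCTC on the other strand), TGCTGA (a core of MAF sites, TCAGCA on the other strand) or TGANTCA (AP-1). PU.1 and MAF proteins are transcription factors of macrophages.
C1qb, chr4:136886201-136886450: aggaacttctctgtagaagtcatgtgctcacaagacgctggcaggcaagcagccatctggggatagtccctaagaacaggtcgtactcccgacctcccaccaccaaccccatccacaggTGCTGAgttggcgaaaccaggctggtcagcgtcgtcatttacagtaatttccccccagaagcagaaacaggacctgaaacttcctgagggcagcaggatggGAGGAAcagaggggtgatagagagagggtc
C1qc, chr4:136892915-136893164: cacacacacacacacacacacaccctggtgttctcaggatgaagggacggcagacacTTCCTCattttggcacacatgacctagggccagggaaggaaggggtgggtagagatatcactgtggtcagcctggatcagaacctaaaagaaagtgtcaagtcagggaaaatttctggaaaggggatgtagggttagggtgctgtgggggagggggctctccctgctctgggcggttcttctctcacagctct
C3ar1, chr6:122856158-122856407: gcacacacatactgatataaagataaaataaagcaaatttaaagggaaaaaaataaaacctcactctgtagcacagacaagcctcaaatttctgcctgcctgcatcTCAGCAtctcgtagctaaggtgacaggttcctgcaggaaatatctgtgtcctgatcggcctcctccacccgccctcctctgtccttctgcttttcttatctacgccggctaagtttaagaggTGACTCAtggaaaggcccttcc

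GAGGAA was found in the windows of C1qb (30 bases before the start) and C1qc (193 bases before it), which is 2 of the 6 measured complement genes with a RefSeq window (all but C1qa), against 23.3% of 32851 mouse windows of this length. TGCTGA was found in 4 of 6 (C1qb, C3, C3ar1 and C5ar1), against 16.1% of all windows. TGANTCA was found in C3ar1 alone, 22 bases before its start, and in 6.7% of all windows. The interferon-response motif (in 3.0% of windows) and the NF-kB motif (in 1.0%) had no match in the 6 windows, and Cfp matched none of the 5 motifs. A match describes letters, not binding. In RefSeq, C1qb, C1qc and C1qa follow each other on chromosome 4 between Ephb2 and Epha8.

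C1qb codes for the B chain of C1q. Its level was 619.0 RPM in NC1, 946.7 RPM in NC2 and 158.5 RPM in NC3, against 1028.2, 1061.0, 271.0 and 422.2 RPM in the hypercapnia libraries HC1 to HC4. HC1 and HC2 were the highest libraries, NC3 and HC3 the lowest, and the groups overlapped across nearly the whole range. The means were 574.7 ± 396.0 RPM (SD, n = 3) in normocapnia and 695.6 ± 407.9 RPM (SD, n = 4) in hypercapnia. The difference of hypercapnia minus normocapnia was 0.39 on the log2(RPM + 1) scale (SE 0.83, 95% interval -1.67 to 2.45, limma p = 0.654, Benjamini-Hochberg adjusted p = 0.976; exact permutation p = 0.686, two-sided), smaller than the spread between replicates. The smallest p that the exact permutation test allows in this design is 0.0286. The direction rested on NC3: without it the C1qb difference was -0.36.

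C1qc codes for the C chain of C1q. NC1 had 3.256 RPM, NC2 12.91 RPM and NC3 0.069 RPM, which is 1 read, and HC1 to HC4 had 16.01, 9.949, 2.124 and 2.505 RPM. NC2, HC1 and HC2 were high and NC3, HC3 and HC4 low, the same order as for C1qb apart from the places among the 3 high libraries. Within hypercapnia the highest library was 7.54 times the lowest. The C1qc difference was 0.75 (SE 1.09, 95% interval -1.97 to 3.48, limma p = 0.517, adjusted p = 0.927; exact permutation p = 0.6). Leaving out NC3 turned it to -0.20, and it was 1.51 with 0.1 RPM added in place of 1 RPM and 0.33 with 5 RPM added.

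C1qa, the A chain, was read at the detection limit. NC1, NC2 and NC3 had 1, 1 and 0 reads, and HC1 to HC4 had 10, 9, 0 and 1 reads. Hence only HC1 and HC2 were above the floor of 3 reads, and both were also the hypercapnia libraries with high C1qb and C1qc. Pooled over libraries, 2 of 60336120 reads in normocapnia and 20 of 74039510 reads in hypercapnia gave a ratio of 8.15 (exact 95% interval 1.98 to 71.9). This interval covers counting error only and compares the pooled libraries, not the conditions. Between libraries the difference in C1qa was 0.25 on the log2(RPM + 1) scale (SE 0.16, 95% interval -0.15 to 0.64, limma p = 0.177, adjusted p = 0.915; exact permutation p = 0.286), and the added 1 RPM shrinks a gene at this level. It was 1.05 with 0.1 RPM added, and 2.80 and 2.92 with edgeR without a filter and DESeq2 on whole reads, which at these counts depend on the fit.

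Across the 7 libraries the C1qb and C1qc profiles were the closest pair of complement genes. After each gene was centred on its own mean, their log2(RPM + 1) values differed by a root mean square of 0.474, against 1.689 for Cfp and C3ar1, the widest pair. The number of C1qb reads per C1qc read was 190 in NC1, 73.3 in NC2, 64.2 in HC1, 107 in HC2, 128 in HC3 and 169 in HC4. In NC3 it was 2302, but on a single C1qc read, so that its exact 95% interval, which covers counting error only, runs from 413 to 91000. This ratio was chosen after the values were seen and has no test.

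**Figure D1:**
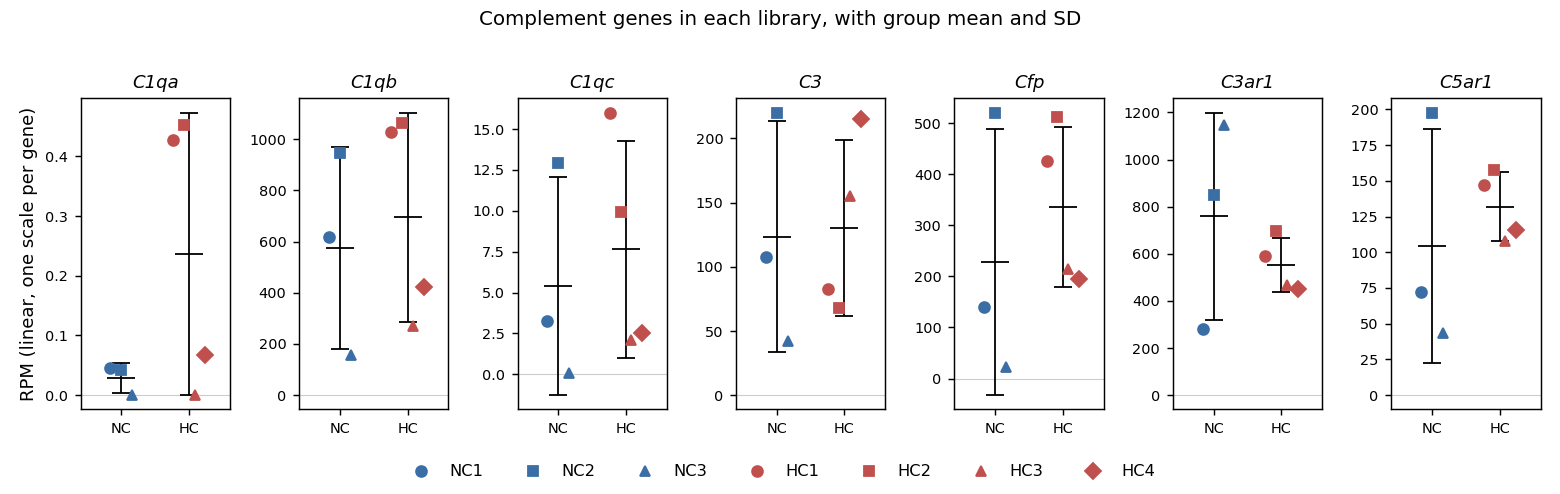
Level of each measured complement gene in RPM on a linear axis, 1 panel per gene, with normocapnia (NC) in blue and hypercapnia (HC) in red. Points are libraries, and black lines give the group mean and SD (n = 3 and 4). The groups overlap in every panel, and NC3, the blue triangle, is the lowest library for C1qb, C1qc, C3, Cfp and C5ar1 but the highest for C3ar1.

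C3, the component on which all complement routes meet, was measured at 107.7 RPM in NC1, 220.1 RPM in NC2 and 42.47 RPM in NC3. Hypercapnia libraries HC1 to HC4 had 82.91, 67.69, 155.5 and 215.1 RPM. Within hypercapnia HC3 and HC4 lay above HC1 and HC2, whereas for C1qb and C1qc they lay below them, and the groups overlapped. Endothelial markers were also higher in HC3 and HC4, with sums of 528.7 and 407.7 RPM over 8 genes, than in HC1 and HC2, with 63.0 and 49.34 RPM. In normocapnia the endothelial sum was 232.2 RPM in NC1, 105.1 RPM in NC2, the library with the most C3, and 90.18 RPM in NC3. Monocyte sums in HC3 and HC4 were 1124.2 and 1097.9 RPM against 890.1 and 873.7 RPM in HC1 and HC2, and in normocapnia they had the order of C3, with 735.6 RPM in NC1, 1063.7 RPM in NC2 and 172.2 RPM in NC3. The 10 markers of fibro-adipogenic cells, stromal cells of muscle, summed to 2186.2 and 2585.9 RPM in HC3 and HC4 and to 1155.4 and 1063.9 RPM in HC1 and HC2. In normocapnia they summed to 2104.9 RPM in NC1, 1471.2 RPM in NC2 and 1139.6 RPM in NC3, which was not the order of C3. The dendritic, neutrophil, satellite and myofiber sums were likewise higher in HC3 and HC4 than in HC1 and HC2, and the macrophage and resident macrophage sums lower. Whether any of these cells bear on C3 was not tested.

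The C3 means of 123.4 ± 89.83 RPM (SD, n = 3) in normocapnia and 130.3 ± 68.3 RPM (SD, n = 4) in hypercapnia differed by 0.22 on the log2 scale (SE 0.69, 95% interval -1.51 to 1.95, limma p = 0.763, adjusted p = 1.0; exact permutation p = 0.771). This was the smallest difference among the complement genes at 1 RPM or more. It had no stable sign, since C3 came to -0.39 without NC3, to -0.07 without HC4 and to -0.04 with DESeq2 on whole reads.

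Cfp codes for properdin, the positive regulator of the alternative pathway. Its level was 139.5 RPM in NC1, 520.5 RPM in NC2 and 22.92 RPM in NC3. HC1 to HC4 had 424.9, 511.8, 213.7 and 195.5 RPM. All 4 hypercapnia libraries lay between NC1 and NC2, so the groups overlapped. Normocapnia spanned a factor of 22.7 and hypercapnia 2.62. The difference in Cfp was 1.36 on the log2(RPM + 1) scale (SE 1.10, 95% interval -1.38 to 4.10) and did not pass the test (limma p = 0.265, adjusted p = 0.915; exact permutation p = 0.314). On whole reads it was 0.58 with edgeR and 0.56 with DESeq2. It was 0.19 without NC3, and 2.42 without NC2, in a fit that brought Cfp past both thresholds and called 1205 of all genes.

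C3ar1, the receptor of the C3a fragment, had 279.6 RPM in NC1, 848.0 RPM in NC2 and 1147.5 RPM in NC3. HC1 to HC4 had 591.9, 695.8, 469.6 and 449.7 RPM. Hypercapnia libraries lay close together, with 1.55 between highest and lowest, and inside the range of normocapnia. The means of 758.3 ± 440.8 RPM (SD, n = 3) and 551.8 ± 114.8 RPM (SD, n = 4) differed by -0.25 on the log2 scale (SE 0.52, 95% interval -1.55 to 1.04, limma p = 0.643, adjusted p = 0.971; exact permutation p = 0.686). The C3ar1 difference was -0.86 without NC1, past both thresholds in a fit that called 1990 of all genes, and 0.16 without NC3. With edgeR and DESeq2 on whole reads it was -0.72 and -0.77.

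C5ar1, the receptor of C5a, a strong attractant of neutrophils and monocytes, had 72.17 RPM in NC1, 197.7 RPM in NC2 and 43.23 RPM in NC3. HC1 to HC4 had 146.9, 157.5, 107.6 and 115.6 RPM. The 4 hypercapnia libraries again lay between NC1 and NC2, within a factor of 1.46. The difference in C5ar1 was 0.60 (SE 0.53, 95% interval -0.72 to 1.93, limma p = 0.3, adjusted p = 0.915; exact permutation p = 0.343). It was 1.21 without NC2, again past both thresholds, and 0.12 without NC3. On whole reads it was 0.28 with edgeR and 0.25 with DESeq2. With the mean log2 level of the 14 macrophage markers as a covariate, the differences were -0.03 for C5ar1, -0.46 for C1qb, -0.52 for C1qc, 0.12 for C1qa, 0.02 for C3, 0.18 for Cfp and -0.58 for C3ar1.

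The receptors kept a nearly fixed ratio in 6 of the 7 libraries. Reads of C3ar1 over reads of C5ar1 came to 3.87 in NC1, 4.29 in NC2, 4.03 in HC1, 4.42 in HC2, 4.37 in HC3 and 3.89 in HC4, and to 26.5 in NC3. NC3 thus combined the highest C3ar1 level with the lowest C5ar1 level. Of the most abundant markers, Lyz2 (lysozyme of myeloid cells) and Folr2 (a resident macrophage marker) were highest in NC3, at 29107.7 and 1106.2 RPM, whereas Cd68 (1909.7 RPM) and Mrc1 (854.0 RPM) were not. Ccr2, the chemokine receptor of monocytes, was lowest in NC3, at 63.67 RPM against 491.0 to 615.4 RPM in the others, whereas Vcan (82.6 RPM) was lower in HC1 and HC2. The ratio was picked after its values were seen, and it has no test.

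**Figure D2:**
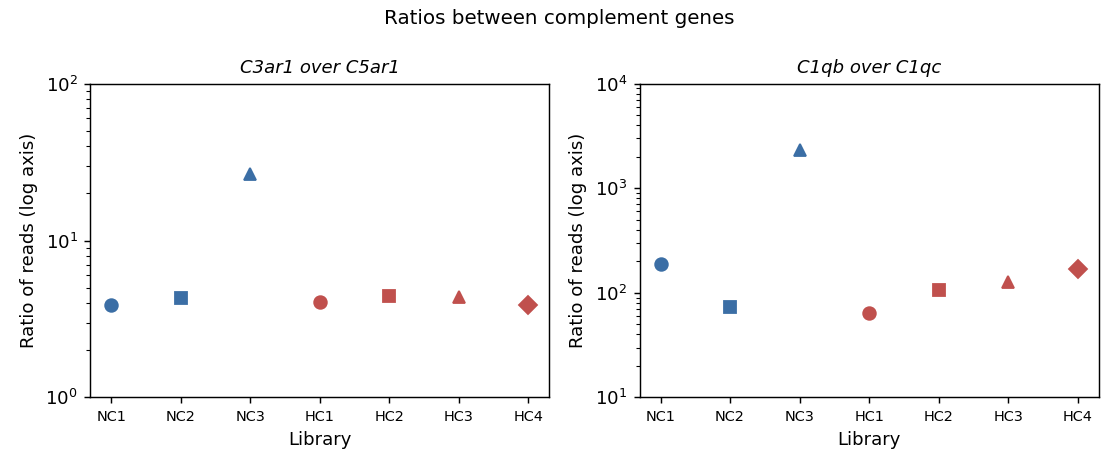
Reads of C3ar1 over reads of C5ar1 (left) and of C1qb over C1qc (right) in each library, on log axes, with normocapnia in blue and hypercapnia in red. NC3 lies at 26.5 and 2302, and the other 6 libraries lie between 3.87 and 4.42 and between 64.2 and 190.

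The spread was larger in normocapnia for each of the 6 complement genes averaging 1 RPM or more. It was also larger for 10144 of all 12504 genes at this level (81.1%), so this was common among genes at large. The SD of log2(RPM + 1) in normocapnia against hypercapnia was 2.23 against 0.70 for Cfp, 1.07 against 0.29 for C3ar1 and 1.10 against 0.26 for C5ar1. It was 1.34 against 0.97 for C1qb, 1.85 against 1.21 for C1qc and 1.18 against 0.77 for C3. C1qa, at the detection limit, had 0.04 against 0.28. With 3 and 4 libraries the difference in spread was not tested.

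**Figure D3:**
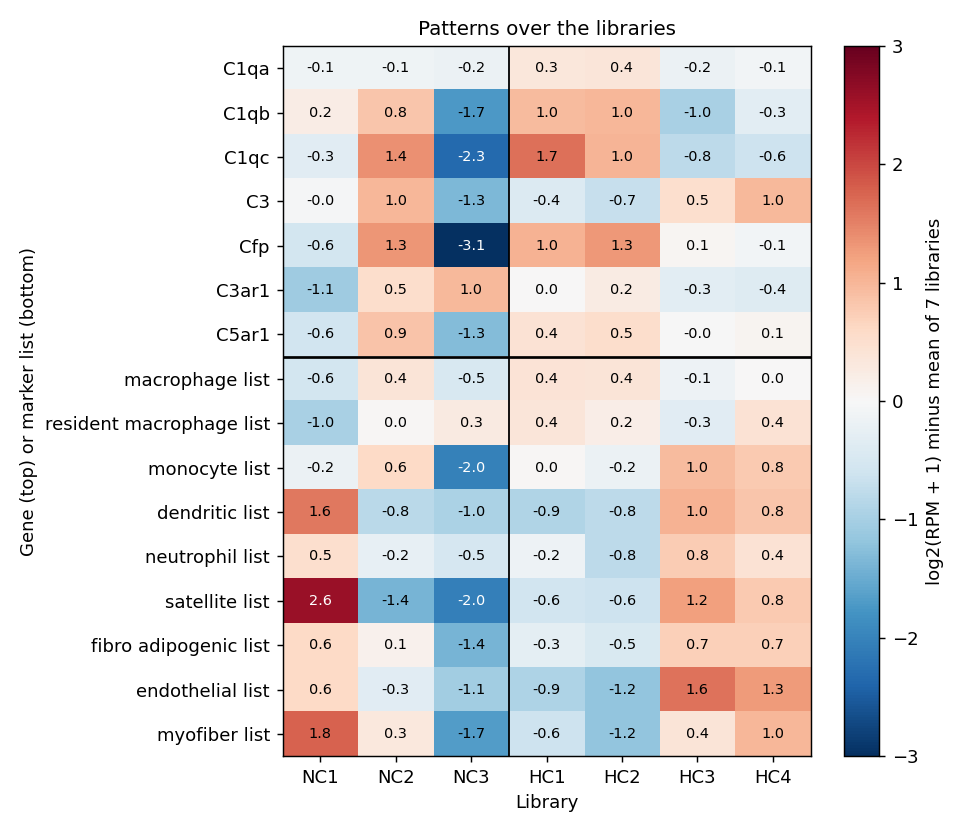
Deviation of log2(RPM + 1) from the mean of the 7 libraries for the complement genes (top) and, for marker lists, of the mean over the list (bottom), in red where above and blue where below. NC3 is low in most complement genes and in the monocyte list, C3ar1 is the exception, and NC1 is high in the satellite and myofiber lists.

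Genes with the most similar profile were sought among 8224 genes averaging 10 RPM or more, by the same root mean square difference over the 7 libraries. C1qc was closest to Usp14 at 0.104, Lyn (a kinase of myeloid cells) at 0.121 and Ndufb8 at 0.234. C1qb was closest to Tmem135 at 0.172, Snx9 at 0.244 and Ndufb6 at 0.264. For Cfp these genes were Mfsd12 at 0.174, Prex1 at 0.183 and Atp5e at 0.23. For C3 they were Bhlhe40 at 0.223, Glipr2 at 0.245 and Fgr at 0.298. C3ar1 was closest to 3110002H16Rik at 0.097, Plekhm1 at 0.101 and Alox5ap (needed for leukotriene synthesis) at 0.119. C5ar1 was closest to Rab3d at 0.11, Slc25a13 at 0.122 and Atp8b4 at 0.125. C1qa, at the detection limit, is left out. With 7 libraries and this many genes, close matches describe a shared profile in these libraries.

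The rest of the system was described by a list of 52 complement genes beyond the 8, of which 47 had a row and 23 averaged 1 RPM or more. Of these 23, 12 were higher and 11 lower in hypercapnia, with a median log2 difference of 0.22 against 0.16 for all 12504 genes at this abundance. Limma called 1 of the 47 genes higher (Calr) and 2 lower (C6 and Cd46), against 1.43% and 1.14% of all genes, and 0 after Benjamini-Hochberg adjustment with 4 at an unadjusted p under 0.05. Counts of this size over 47 genes say little about the list, and none of the 3 calls held under every alternative. At this level 3 of the 23 had groups that did not overlap, these same genes, against 7.72% of all genes.

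Among 13 genes of the classical and lectin pathways, none was called and 5 reached 1 RPM. C4b, the C4 component that C1-bound proteases cleave, ran from 14.59 RPM in NC3 to 62.42 RPM in NC2, with HC1 to HC4 at 32.49 to 49.09 RPM inside that range (log2 difference 0.22, SE 0.51). C4b and C4a are near-identical copies, so their split is uncertain. Fcna, a ficolin of macrophages that opens the lectin pathway, lay between 15.73 and 36.02 RPM (0.24, SE 0.26).

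Of the 8 genes of the alternative pathway and the terminal complex, C6 alone was called, at the unadjusted threshold, and was lower in hypercapnia. C6, part of the pore that ends the cascade, had 3.88, 3.891 and 18.17 RPM in normocapnia (NC1, NC2, NC3) against 1.669, 2.01, 1.0 and 1.896 RPM in hypercapnia (HC1 to HC4). Every hypercapnia library was below every normocapnia library. The C6 difference was -1.56 (SE 0.54, 95% interval -2.92 to -0.20, limma p = 0.0314, adjusted p = 0.915; exact permutation p = 0.0286, the smallest possible). The call was lost without any 1 of the 4 hypercapnia libraries (-1.63 to -1.43). Without NC3, which had the highest level, the difference was -0.90 and still called, as it was with edgeR on whole reads at -2.73 (-2.66 without a filter). The call was also lost with a pseudocount of 5 RPM (-0.88), median-of-ratios (-1.69) or quantile scaling (-1.76), the macrophage covariate (-1.37) or a replicate block (-1.61), and DESeq2 gave no p for C6. C7, its neighbour in the pore, ran from 0.223 RPM in NC1 to 18.75 RPM in HC4 (0.95, SE 1.10), and its difference was 0.26 without HC4, 0.43 without NC1 and 1.6 without NC2.

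Of 17 regulators, Cd46 alone was called, at the unadjusted threshold, and was lower in hypercapnia. Cd46, a cofactor in the inactivation of C3b, had 9.411, 6.542 and 9.499 RPM in NC1, NC2 and NC3, and the hypercapnia libraries had 3.595, 2.512, 4.936 and 5.552 RPM. The groups did not overlap, although NC2 and HC4 lay close. The Cd46 difference was -0.91 (SE 0.26, 95% interval -1.55 to -0.26, limma p = 0.0148, adjusted p = 0.899; exact permutation p = 0.0571). It was no longer called without NC1 (-0.83) or NC3 (-0.82), nor with a pseudocount of 5 RPM (-0.56). Cr1l, the rodent cofactor Crry, lay between 40.41 and 87.73 RPM (-0.09, SE 0.28).

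Of 9 other receptors and C1q-binding proteins, Calr alone was called, at the unadjusted threshold. Calr (calreticulin) is a chaperone of the endoplasmic reticulum that also binds C1q at the cell surface, and its level in normocapnia was 813.5, 849.8 and 1330.7 RPM, and in hypercapnia 1652.0, 1334.5, 1503.1 and 1433.8 RPM. The groups did not overlap, but NC3 and HC2 nearly met. The Calr difference was 0.60 (SE 0.19, 95% interval 0.11 to 1.09, limma p = 0.0239, adjusted p = 0.915; exact permutation p = 0.0286). It lost the call by p alone with the 1 RPM filter (0.60), limma-trend (0.60) and the replicate block (0.62), and with a smaller difference with median-of-ratios scaling (0.46), with edgeR (0.36) and DESeq2 (0.31) on whole reads, and without NC1 (0.47), NC2 (0.50), HC1 (0.55) or HC3 (0.59). Itgam, a chain of complement receptor CR3, lay within a factor of 1.08 in hypercapnia (1391.0 to 1509.2 RPM) and at 846.8, 2721.1 and 1656.4 RPM in normocapnia (-0.12, SE 0.39).

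**Figure D4:**
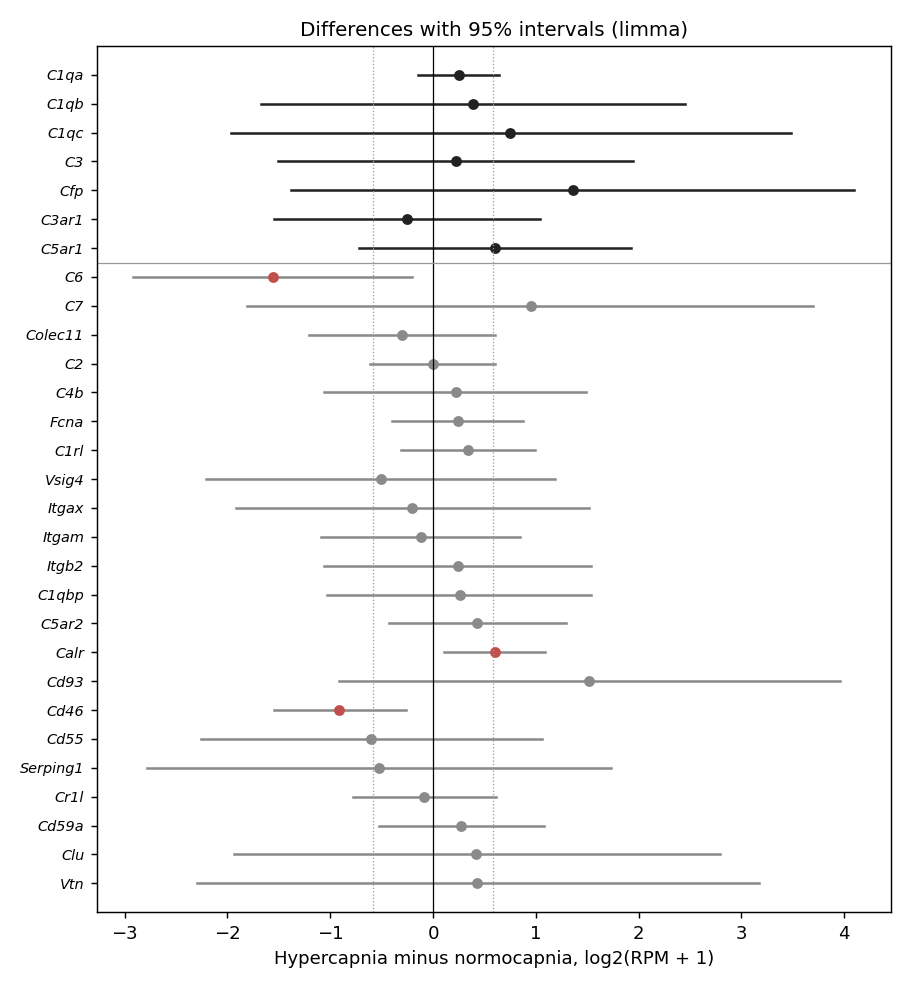
Log2(RPM + 1) difference of hypercapnia minus normocapnia with its 95% interval from limma, for the 7 measured complement genes (black, above the line) and other complement genes averaging 1 RPM or more (below it, called genes in red). Dotted lines mark a fold change of 1.5 in each direction, and only C6, Cd46 and Calr have intervals beside 0.

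**Figure D5:**
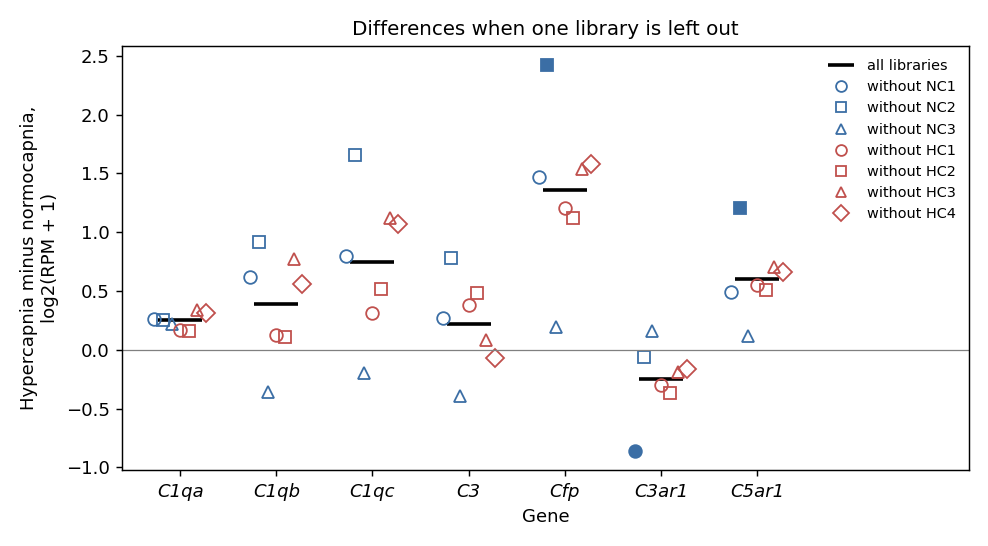
Log2(RPM + 1) difference of hypercapnia minus normocapnia of each complement gene with all libraries (black bar) and without each library in turn (symbols, filled where the gene was called). In the 6 genes averaging 1 RPM or more, leaving out a normocapnia library moved the values most, from -0.86 for C3ar1 without NC1 to 2.42 for Cfp without NC2.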

How the data were processed

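The authors sorted Pax7-GFP cells, made Ion AmpliSeq Transcriptome libraries on an Ion Chef, sequenced them on an Ion S5 and deposited RPM (reads per 1000000 reads of the library) for 23930 genes. The labels name the Transcriptome Analysis Console. Aligner and genome build: not given in the sources used here. Whole reads were recovered from the RPM steps (100.0% of values whole within 0.05 reads), so that 3 reads, the floor, equal 0.128 to 0.207 RPM, and the recovery was right in 3 of 3 simulated libraries.

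Groups came from the treatment labels. All genes were fitted, unfiltered, as log2(RPM + 1) by limma 3.58.1 (R 4.3.3), the pseudocount being 1 RPM. A call needed an unadjusted p below 0.05 together with a 1.5-fold change, with Benjamini-Hochberg values over all genes. Fold changes on this scale understate those of low genes. Single genes were also compared by an exact permutation test. On simulated data with 200 genes changed 4-fold among 23930, limma recovered 99.5% at a dispersion of 0.02 and 88% at 0.2. These dispersions were not fitted to the libraries. The complement genes averaging 1 RPM or more had larger spreads, with normocapnia SDs of 1.07 to 2.23 for log2(RPM + 1). The recovered shares therefore do not carry over to them.

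Alternatives were pseudocounts of 0.1 and 5 RPM, a filter that kept genes averaging 1 RPM, median-of-ratios and quantile scaling, limma-trend, edgeR 4.0.16 and DESeq2 1.42.0 on recovered reads, a macrophage covariate, a replicate block and leaving out each library. The complement genes and the lists were chosen with earlier results of these data known. Beyond them, genes could be named if called or if among the 2 most abundant of a role or marker list. They could also be named if their groups did not overlap at a mean of at least 10 RPM, or as the 3 genes nearest in profile. The text names only a selection of the genes under this rule. Called markers are given as counts without names. The 2 most abundant markers are named for the macrophage, monocyte and resident macrophage lists alone. A complement regulator that fell under this naming rule is also left out here. Promoter windows are RefSeq's.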

Additional observations from a re-analysis of the deposited data

How the results depend on the processing

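Of 124 values of the 7 complement genes under 18 alternatives, 109 kept their direction and side of the thresholds, 12 changed sign and 3 passed the thresholds. The count of called complement genes was 0, and 0 to 2 without 1 library (1 without NC1, 2 without NC2). Without 1 library the differences ran from 0.16 to 0.34 for C1qa, -0.36 to 0.92 for C1qb, -0.20 to 1.66 for C1qc, -0.39 to 0.78 for C3, 0.19 to 2.42 for Cfp, -0.86 to 0.16 for C3ar1 and 0.12 to 1.21 for C5ar1. With the macrophage covariate, C1qb was -0.46, C1qc -0.52, C5ar1 -0.03 and C4b -0.16. With edgeR, edgeR without a filter and DESeq2, C3 was -0.0026, -0.03 and -0.04, and C4b -0.00032, -0.01 and -0.03. Sign changes of other genes without 1 library were C4b (-0.38 without NC3, range to 0.63), Fcna (-0.0048 without NC2, range to 0.37), Cr1l (0.20 without NC2) and Itgam (0.28 without NC2, range from -0.56), and Itgam was 0.0024 with quantile scaling. The cause of these moves was not tested.

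Of the 47 wider genes, 3 were called, 1 with a pseudocount of 5 RPM, with median-of-ratios scaling or with DESeq2, and 1 to 5 without 1 library (1 without NC1, HC1 or HC3, 5 without NC2). Of all genes, 615 were called, 1049 with edgeR without a filter, 1304 with DESeq2 (29 after adjustment), and 376 (without HC2) to 1990 (without NC1) when 1 library was left out. Genes averaging 1 RPM had a median log2 difference of 0.16, of 0.04 with median-of-ratios and of -0.01 with quantile scaling.

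The replicate numbers were not taken as pairs. Deviations from the group means correlated at -0.35, 0.50 and -0.04 for same-numbered libraries (1, 2 and 3). For differently numbered ones they correlated at -0.42 to 0.45. So few values cannot exclude a pairing. With the replicate number as a block, from which HC4 drops out, C3 was -0.07, 0 complement genes were called, and 598 of all genes. C1qa gave no value under the 1 RPM filter or edgeR's filter. C1qa outside HC1 and HC2, and the single C1qc read of NC3, lie below the floor of 3 reads. In the same libraries C1qb had 2302 (NC3) to 24023 (HC1) reads. Why the C1q chains were read so unequally was not tested.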
